A study of Mus musculus with 8 samples.

Results

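Top3a, Pmp22, Aldh3a1, Zfp692 and Arhgap44 are genes of mouse chromosome 11 that lie within 5 Mb of Mfap4, the gene disrupted in the mice studied here. They were found by matching the accession printed with each array spot to RefSeq transcripts or synonyms. Top3a, Pmp22 and Aldh3a1 matched through a transcript, and Zfp692 and Arhgap44 through a synonym. The names were not checked against clone sequences. Each of the 5 genes was represented by 1 spot among 20205 spots, and they are 5 of the 11 named genes of that stretch and of the 1387 genes that could be named on the array. The RefSeq table lists 149 protein-coding genes in the same stretch, so most neighbours of Mfap4 were not measured under a name. In chromosome order Zfp692, Top3a and Aldh3a1 come before Mfap4, and Pmp22 and Arhgap44 after it.

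RNA came from hearts of 4 male MFAP4-/- mice of the C57BL/6N background aged 19 weeks, and the reference was a pool of heart RNA from wild-type males of the same background and age. Each mouse was hybridised to 2 spotted cDNA arrays, once labelled with Cy3 and once with Cy5, with the pool in the other dye, for 8 arrays in all. On the pool the labels disagree: it held 6 control animals in the labelling protocol and 4 in the channel labels. No control mouse was hybridised singly, so no test holds the spread between control mice, and any peculiarity of the pool is shared by all 4 ratios. The labels used here do not say how the allele was made.

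Mfap4 encodes an extracellular glycoprotein that binds microfibrils and elastic fibres, and it lies among genes with unrelated functions. In a knockout line the stretch around a targeted allele is inherited together with it, so the neighbours are commonly looked at beside the targeted gene. The 5 genes belong to different parts of the cell. Top3a encodes a type I DNA topoisomerase that works with the BLM helicase in the nucleus and also acts on mitochondrial DNA. Zfp692 encodes a zinc finger protein, also named AREBP, which is a target of the energy sensor AMPK. Pmp22 encodes a membrane protein of the compact myelin made by Schwann cells in peripheral nerves, and is also expressed outside nerves. Arhgap44 encodes a BAR-domain protein that switches off the small GTPases Rac and Cdc42. Aldh3a1 encodes an aldehyde dehydrogenase that is abundant in the cornea and is induced through the aryl hydrocarbon receptor. No spot could be named Mfap4, so the loss of its RNA was not checked here.

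The arrays hold no probe letters in the files used here, but the table of RefSeq promoters used here covers Zfp692, Pmp22 and Arhgap44, 3 of the 5 genes, with windows of 250 bases before to 50 bases after a start in GRCm38.p6. They are shown because the members share a stretch of chromosome, and the windows let their starts be set side by side. The windows are of Zfp692 (chr11:58306819-58307118, plus strand), of the first and the last of the 4 windows listed for Pmp22 (chr11:63128732-63129031 and chr11:63132553-63132852, plus strand), and of Arhgap44 (chr11:65162912-65163211, minus strand). Capitals mark CpG dinucleotides.
Zfp692: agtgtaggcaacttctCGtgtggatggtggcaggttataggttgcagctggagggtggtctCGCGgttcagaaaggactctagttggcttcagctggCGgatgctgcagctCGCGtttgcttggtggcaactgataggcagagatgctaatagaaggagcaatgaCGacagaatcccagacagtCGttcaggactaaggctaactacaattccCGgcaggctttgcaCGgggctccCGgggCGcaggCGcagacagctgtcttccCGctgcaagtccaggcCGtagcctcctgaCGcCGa
Pmp22 first window: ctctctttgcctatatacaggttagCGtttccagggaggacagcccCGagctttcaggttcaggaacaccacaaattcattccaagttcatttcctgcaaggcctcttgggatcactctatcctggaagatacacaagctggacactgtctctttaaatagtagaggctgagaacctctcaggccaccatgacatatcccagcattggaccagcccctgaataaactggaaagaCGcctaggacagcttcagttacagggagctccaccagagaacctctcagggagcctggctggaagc
Pmp22 last window: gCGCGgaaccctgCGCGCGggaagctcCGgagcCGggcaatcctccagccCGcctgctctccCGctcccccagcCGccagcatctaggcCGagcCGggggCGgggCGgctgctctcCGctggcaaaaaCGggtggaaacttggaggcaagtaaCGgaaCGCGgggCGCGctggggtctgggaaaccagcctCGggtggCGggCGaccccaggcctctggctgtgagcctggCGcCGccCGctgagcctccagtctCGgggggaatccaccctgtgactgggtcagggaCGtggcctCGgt
Arhgap44: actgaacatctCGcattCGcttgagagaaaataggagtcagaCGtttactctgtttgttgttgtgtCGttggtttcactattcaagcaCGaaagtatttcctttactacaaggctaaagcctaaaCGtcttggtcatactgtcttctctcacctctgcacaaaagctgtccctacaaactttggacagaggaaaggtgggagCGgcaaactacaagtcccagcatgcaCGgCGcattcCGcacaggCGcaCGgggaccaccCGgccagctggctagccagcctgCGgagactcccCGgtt
The first Pmp22 window held 3 CpG dinucleotides and 50.7% G and C, and the last held 30 and 72.3%. The second and the third Pmp22 window, not shown, held 18 and 20 CpG. The Zfp692 window held 17 CpG and the Arhgap44 window 15, against a median of 7 over 32851 windows of the same length. Windows with at most 17 CpG made up 70.3% of these, and windows with at most 15 made up 67.0%. The letters TATAAA, searched on both strands, were in none of the 4 windows shown and in 13.6% of all windows. The letters GGGCGG, also searched on both strands, were in the last Pmp22 window 3 times, not in the other 3 windows shown, and in 35.7% of all windows. They were also in the second Pmp22 window 3 times. The RNA values below are per gene spot and do not tell the starts of Pmp22 apart.

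All 5 genes gave dim spots, on arrays where most spots were dim. Over whole arrays, the share of spots at over 2 times background ran from 8.03% to 23.8% in Cy5 and from 4.65% to 35.9% in Cy3. On the scale of median spot intensity over local background, Top3a lay between 1.05 and 1.21 in the knockout channel and between 0.949 and 1.14 in the pool channel over the 8 arrays. Its mean log2 intensity was at the 4.36th percentile of all clones. Top3a was thus at about the level of the glass around it in both channels, and its spot carried a flag on 4 arrays, those of mice 3 and 4. The spots of the other 4 genes carried no flag. Flags covered 0% of all spots on the arrays of mice 1 and 2, and 28.2% to 43.0% on those of mice 3 and 4. Arhgap44 lay between 1.20 and 1.76 in the knockout channel and between 1.18 and 1.58 in the pool, Zfp692 between 1.21 and 2.53 and between 1.35 and 1.95. Pmp22 lay between 1.16 and 2.63 and between 1.31 and 1.76, and Aldh3a1, the brightest of the 5 with a mean log2 intensity of 7.29, between 1.26 and 2.47 and between 1.25 and 1.95. A spot at over 2 times its background was seen in the knockout channel on 4 of 8 arrays for Aldh3a1, on 2 for Pmp22, on 1 for Zfp692 and on 0 for Top3a and Arhgap44, and in the pool channel on 0 arrays for every one of the 5. Brightness is compared here only with background, since spots of different genes do not measure levels on 1 scale. Because the pool signal was never well above background, the ratios are given as log2 differences between dim signals and not as folds. None of these spots had saturated pixels.

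**Figure D1:**
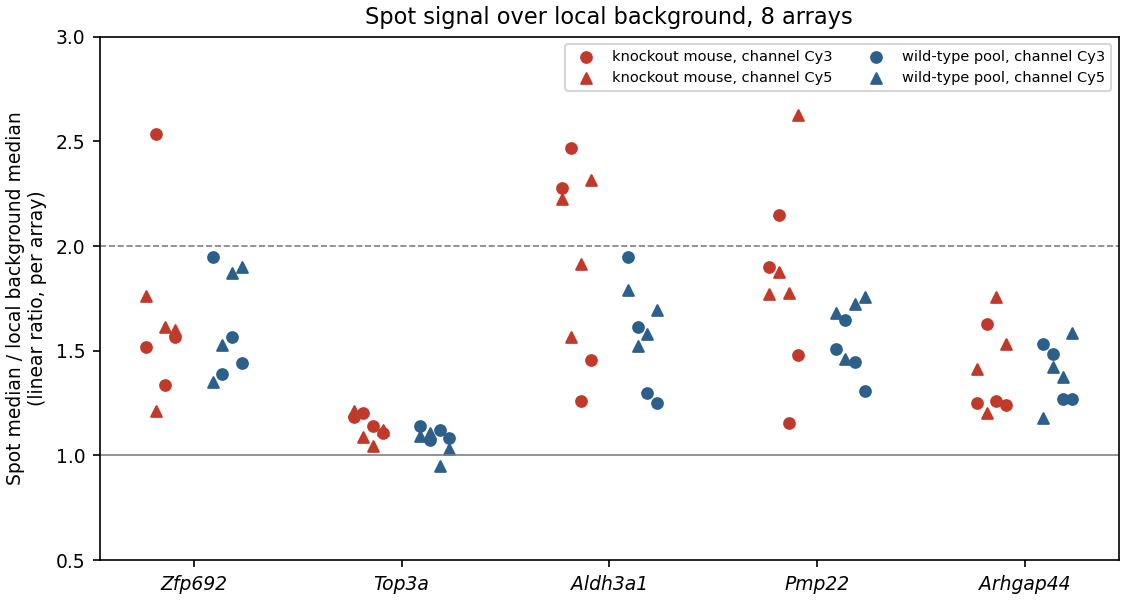
Median spot intensity over median local background (linear ratio) for the 5 genes, with 1 point per array and channel. Red points are the knockout mouse and blue points the pool, circles the Cy3 channel and triangles the Cy5 channel, with the solid line at 1 and the dashed line at 2. Top3a sits between 0.949 and 1.21 throughout, and no pool point of any gene reaches 2.

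The comparison of knockout with pool asks whether RNA of the neighbours differed. None of the 5 genes passed limma's test over all clones at an adjusted p of 0.05, and neither did any of the 20160 clones, so the share called is 0%. The smallest adjusted p of any clone was 0.195. An unadjusted p under 0.05 was reached by 1569 clones (7.78%), of which 637 lay higher in the knockout (3.16% of all) and 932 lower (4.62%), and 1 of the 5 genes, Zfp692, was among the lower ones. Of the 5 log2 ratios of knockout over pool, 2 lay above 0 and 3 below. Their median was -0.0044, beside -0.0037 for all clones, and the middle 50% of all clones lay between -0.087 and 0.076. With 4 mice, the exact sign-flip permutation test over mice cannot go below 0.125. In bulk heart RNA, fewer cells of a type and less RNA per cell cannot be told apart.

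Among the genes of the nucleus, Zfp692 had the lowest ratio of the 5. Its log2 ratios of knockout over pool were -0.048, -0.13, -0.56 and -0.26 in mice 1 to 4. All 4 mice lay below 0, as did 1811 of all clones (8.98%), and mouse 3 lay lowest. None of the 5 genes lay above 0 in all 4 mice, as 8.05% of clones did. The mean was -0.25 ± 0.10 (SE, n = 4 mice, limma; unadjusted p = 0.0365, adjusted p = 0.604; exact two-sided sign-flip permutation p = 0.125), with a 95% interval from -0.48 to -0.019. On single arrays it lay below 0 on 6 of 8. Both exceptions were Cy3 arrays, at 0.13 for mouse 1 and 0.032 for mouse 2. With the mouse in Cy5 the 4 arrays lay close together, at -0.29 ± 0.086 (SD, n = 4 arrays), and with the mouse in Cy3 they lay at -0.20 ± 0.37. Without mouse 3 the mean was -0.15, and in mice 1 and 2 alone, whose arrays carry no spot flags, it was -0.089. Over 21 alternative settings, which reuse the same mice and are not separate tests, the unadjusted limma p of Zfp692 was under 0.05 in 15. It was 0.074 with a trended and robust variance prior, 0.19 without mouse 3 and 0.085 without mouse 4. Plain background subtraction, Cy3 alone and mice 1 and 2 alone also gave an unadjusted p above 0.05. On the array of mouse 3 in Cy3, which gave the lowest value of -0.70, the scanner read 178 over a background of 133 for the mouse and 316 over 169 for the pool. On the array of mouse 1 in Cy3, which gave the highest, it read 285 over 188 for the mouse and 358 over 265 for the pool.

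Top3a, the topoisomerase gene, had log2 ratios of 0.22, -0.012, 0.12 and 0.022 in mice 1 to 4. The mice straddled 0, with 3 above and 1 below. The mean was 0.088 ± 0.085 (SE, n = 4 mice; limma adjusted p = 0.818; exact sign-flip permutation p = 0.25), with a 95% interval from -0.10 to 0.28. Without mouse 1 it was 0.042. The orientations of the dyes lay apart, since the mean over the 4 Cy3 arrays was 0.21 and over the 4 Cy5 arrays -0.030, and mouse 3 gave 0.49 in Cy3 and -0.26 in Cy5. With no background correction the mean was -0.00026.

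Pmp22, the myelin gene, had a mean near 0 that joined unlike mice. Its log2 ratios were 0.20, 0.16, -0.50 and 0.12 in mice 1 to 4. Mice 1, 2 and 4 lay close together above 0, and mouse 3 lay apart below. The mean was -0.0044 ± 0.12 (SE, n = 4 mice; limma adjusted p = 0.995; exact sign-flip permutation p = 1), with a 95% interval from -0.28 to 0.28, and 0.16 ± 0.098 without mouse 3. The SD over mice, 0.33, exceeded that of 88.8% of clones. The lowest array was that of mouse 3 in Cy3 at -0.87, while the same mouse in Cy5 gave -0.14. The other 3 mice lay between -0.13 and 0.087 in Cy3 and between 0.23 and 0.37 in Cy5. No Schwann cell marker of the 8 listed was named on the arrays, so the share of nerve in the hearts was not measured.

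Arhgap44, the regulator of Rac and Cdc42, had log2 ratios of -0.095, -0.41, 0.094 and -0.24 in mice 1 to 4. In 3 mice it lay below 0, lowest in mouse 2, and in mouse 3 above. The mean was -0.16 ± 0.10 (SE, n = 4 mice; limma adjusted p = 0.716; exact sign-flip permutation p = 0.25), with a 95% interval from -0.39 to 0.062. It was -0.081 without mouse 2 and -0.25 without mouse 3 (limma unadjusted p = 0.0489, adjusted p = 0.679). Mouse 2 gave -0.66 in Cy5 and -0.16 in Cy3, and mouse 1 gave -0.41 in Cy5 and 0.22 in Cy3. On the Cy5 array of mouse 2 the local background at this spot was 205 in the mouse channel, against an array median of 175, and 234 in the pool channel, against 185. Whether the local background set this value was not tested.

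Aldh3a1, the aldehyde dehydrogenase gene, had the highest mean of the 5. Its log2 ratios were 0.21, 0.048, -0.023 and 0.21 in mice 1 to 4. Mice 1 and 4 were alike and high, and mice 2 and 3 lay near 0. The mean was 0.11 ± 0.086 (SE, n = 4 mice; limma adjusted p = 0.763; exact sign-flip permutation p = 0.25), with a 95% interval from -0.082 to 0.31. The 4 Cy5 arrays averaged 0.29 and the 4 Cy3 arrays -0.064. The widest split was in mouse 3, at 0.43 in Cy5 and -0.47 in Cy3. With no background correction the mean was 0.11 (limma unadjusted p = 0.0466, adjusted p = 0.611).

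**Figure D2:**
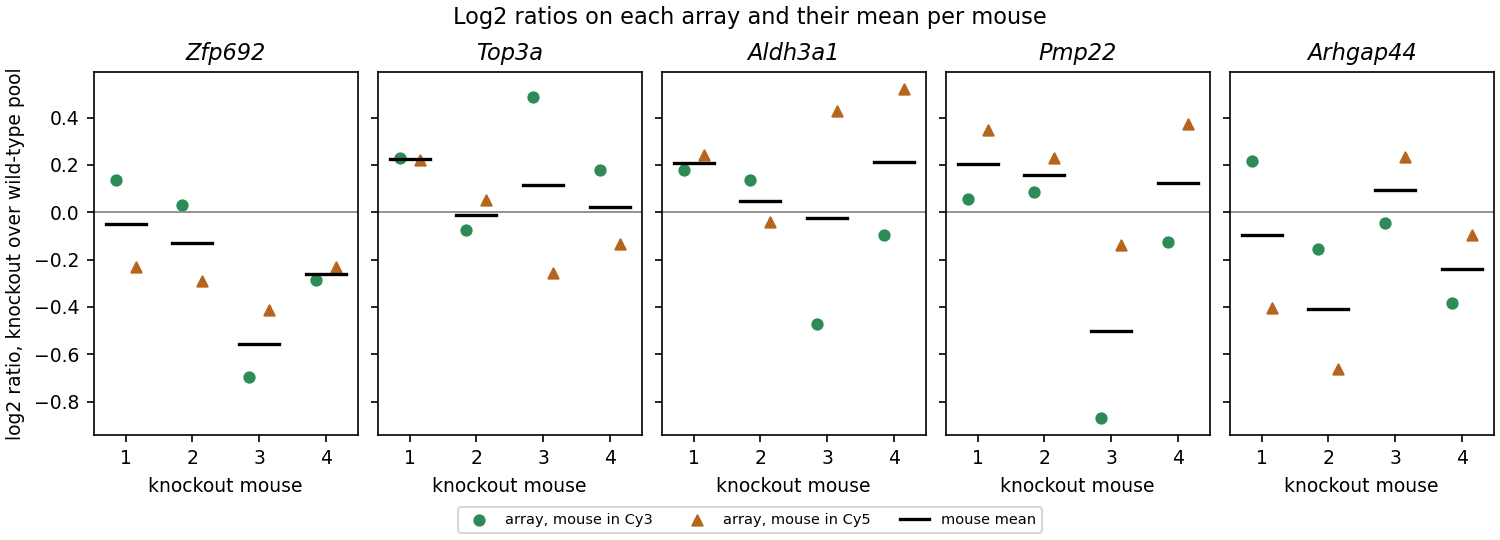
Log2 ratio of knockout over pool (y axis) for each knockout mouse (x axis) and gene, with circles for arrays with the mouse in Cy3, triangles for arrays with the mouse in Cy5, and a bar for the mean of both. Zfp692 alone has all 4 bars below 0, from -0.56 to -0.048, and the bar of mouse 3 for Pmp22 stands at -0.50 against 0.12 to 0.20 in the other mice.

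Across the 5 genes, the gap between dye orientations was often larger than the mean ratio. The mean with the mouse in Cy5 minus that with the mouse in Cy3 was 0.42 for Pmp22, 0.35 for Aldh3a1, -0.24 for Top3a, -0.14 for Arhgap44 and -0.087 for Zfp692, beside a median size of 0.25 over all clones. Zfp692 was thus the gene of the 5 whose orientations lay closest. A term for dye was added in a limma fit over the 8 arrays, with the mouse as random block. The dye effect passed an adjusted p of 0.05 for 0 of the 5 (limma adjusted p from 0.316 for Pmp22 to 0.837 for Zfp692). It passed for 1156 of all clones (5.73%), a share at which 0 of 5 does not set the members apart. Across all clones, Pearson's r was 0.106 to 0.420 between arrays with the mouse in the same dye, and -0.264 to -0.024 between the 2 arrays of 1 mouse. Clones are not independent replicates.

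Top3a, whose spot was at background in both channels, was left out of the order. By mean log2 ratio the other genes ran from Zfp692 through Arhgap44 and Pmp22 to Aldh3a1. Neighbours in this order did not differ beyond their spread over mice. The difference of Arhgap44 over Zfp692 was 0.085 ± 0.40 (SD, n = 4 mice; exact sign-flip permutation p = 0.875), that of Pmp22 over Arhgap44 0.16 ± 0.52 (exact p = 0.625) and that of Aldh3a1 over Pmp22 0.12 ± 0.26 (exact p = 0.625). Between the ends, Aldh3a1 lay above Zfp692 by 0.36 ± 0.17 (SD, n = 4 mice), in 4 of 4 mice. Pmp22 also lay above Zfp692 in 4 of 4 mice, by 0.24 ± 0.14. Each of these 2 differences had an exact sign-flip permutation p of 0.125, the smallest that 4 mice allow, and 0.312 after Benjamini-Hochberg adjustment over all 10 pairs of the 5 genes. Mouse 3 gave the lowest value of the 4 mice for Zfp692, Pmp22 and Aldh3a1, and the highest for Arhgap44.

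Position on the slide was set beside these values, since Pmp22 and Aldh3a1 were both printed in block 37, a patch of 424 spots, as was a further neighbour of Mfap4, Shmt1. On the array of mouse 3 in Cy3, block 37 had a median local background of 161 in the mouse channel against 125 for the array, and the median log2 ratio of its spots was -0.18. On the other 7 arrays that median lay between -0.042 and 0.10. On the same array Pmp22 lay at -0.87, Aldh3a1 at -0.47 and Shmt1 at -0.74, all below the block. With loess fitted within print blocks they lay at -0.74, -0.34 and -0.54 there, and the values of mouse 3 became -0.39 for Pmp22, 0.065 for Aldh3a1 and -0.27 for Shmt1. Under that setting the mean of Pmp22 was 0.048 and that of Aldh3a1 0.13, with Aldh3a1 above 0 in 4 of 4 mice, and neither passed the threshold. Zfp692 was printed in block 39, whose median on that array was -0.020, and its value in mouse 3 was -0.56 under that setting too. On the array of mouse 1 in Cy3 the median of block 39 was 0.13, and Zfp692 went from 0.13 to 0.019 with loess within blocks. Arhgap44 was printed in block 17, whose median on the array of mouse 3 in Cy3 was -0.15. There Arhgap44 went from -0.046 to 0.15 with loess within blocks. The part of slide position in the values of these genes was not tested.

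**Figure D3:**
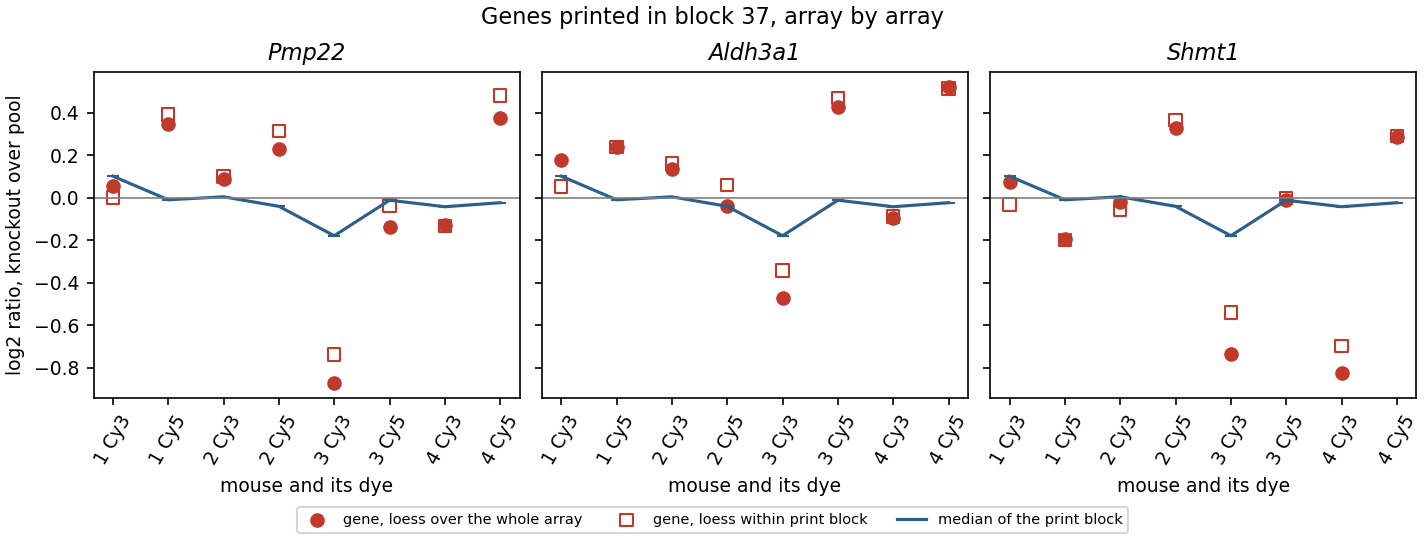
Log2 ratio of knockout over pool (y axis) on each array (x axis, mouse and its dye) for the 3 neighbours of Mfap4 printed in block 37. Filled circles use loess over the whole array, open squares loess within the block, and the line is the median of the block, which is lowest at -0.18 on the array of mouse 3 in Cy3, where all 3 genes lie below it.

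The other 6 named genes within 5 Mb were set beside the members. Drg2, which encodes a GTP-binding protein, was the only one of the 11 at over 2 times background in both channels on all 8 arrays. Its log2 ratios were -0.066, 0.059, 0.21 and -0.089 in mice 1 to 4, and the mean was 0.029 ± 0.088 (SE, n = 4 mice; limma adjusted p = 0.950). This best measured neighbour lay on both sides of 0, with a 95% interval from -0.17 to 0.23. B9d1, a gene of the ciliary transition zone, lay at 0.035 ± 0.11, with 0.42 in Cy3 and -0.35 in Cy5. Akap10, an anchor of protein kinase A, lay at -0.067 ± 0.083, and the histone gene H2bu2 at 0.11 ± 0.091, with a median spot over background in the knockout channel of 0.952 and 1.08. Shmt1, a serine hydroxymethyltransferase, lay at -0.14 ± 0.10. The spots of Akap10, Shmt1 and H2bu2 carried flags on 4, 3 and 2 arrays, that of Dhrs7b on 2, and those of Drg2 and B9d1 on 0. Dhrs7b, a short-chain dehydrogenase, had the highest mean at 0.35 ± 0.21 (SE, n = 4 mice), which rested on 1 array. That array, of mouse 4 in Cy3, gave 2.94, with a flagged spot and a local background of 458 against an array median of 134, while the other 7 lay between -0.25 and 0.26. Over these 6 genes 4 lay above 0 and 2 below, the median was 0.032, and 0 passed an adjusted or an unadjusted p of 0.05. The median ran from -0.0084 (without mouse 1) to 0.042 (without mouse 4) with 1 mouse left out, and was 0.13 in Cy3 alone and -0.040 in Cy5 alone. Over all 11, 6 lay above 0 and 5 below, 1 had 1 sign in all 4 mice (17.0% of all clones did), and 0 had 1 sign on all 8 arrays (1.28% of all clones did). Zfp692 and Arhgap44, the outermost named genes on either side, were the lowest of the 11 in one case and the second lowest in the other.

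**Figure D4:**
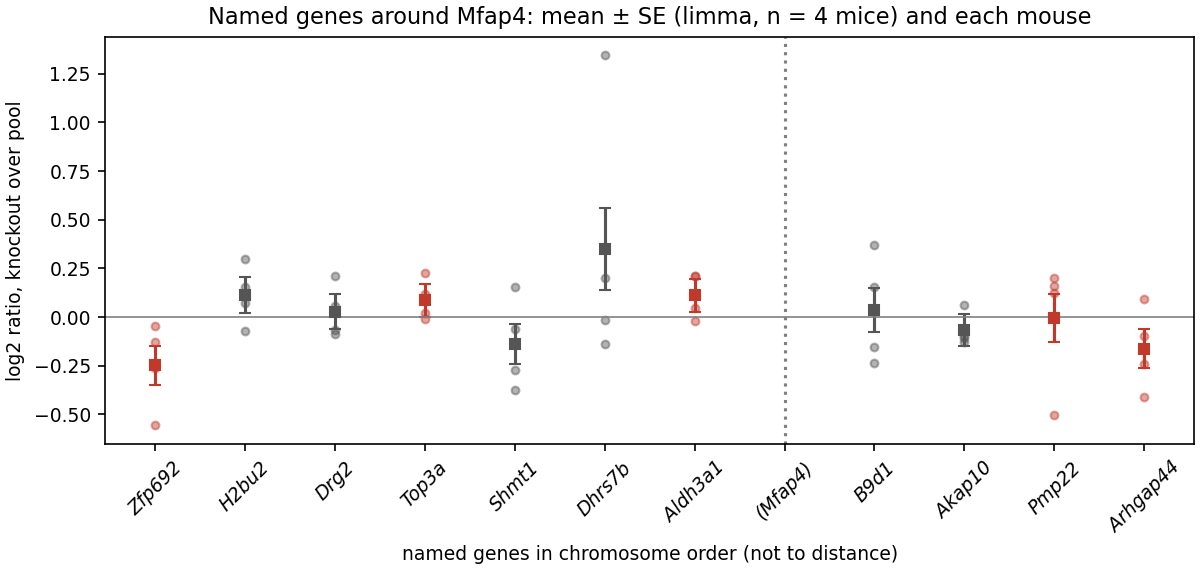
Log2 ratio of knockout over pool (y axis) for the 11 named genes in chromosome order (x axis, not to distance), with Mfap4 marked by the dotted line. Squares are means with SE from limma (n = 4 mice), pale points are mice, red marks the 5 members and grey the other 6. The means run from -0.25 for Zfp692 to 0.35 for Dhrs7b, whose point at 1.34 is mouse 4.

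Genes that work with the members were looked up by name, each by its brightest clone. Of 17 topoisomerase and Holliday junction genes, Top3a alone was named on the arrays, and Pmp22 alone of 5 PMP22 and EMP family genes and of 24 myelin and Schwann cell genes. Of mitochondrial DNA maintenance genes 2 beside Top3a were measured. Tfam, which packages mitochondrial DNA, lay at 0.11 ± 0.093, and Tk2, the mitochondrial thymidine kinase, at -0.33 ± 0.11 (SE, n = 4 mice; limma adjusted p = 0.516), below 0 in 3 of 4 mice. Of aldehyde dehydrogenases 2 others were measured and both lay below 0, unlike Aldh3a1. Aldh1a7 lay at -0.20 ± 0.085 (limma adjusted p = 0.619), below 0 in 4 of 4 mice, and Aldh3b2 at -0.079 ± 0.12. Of detoxification genes that answer to the aryl hydrocarbon receptor or NRF2, 3 others were measured and all lay above 0, with a median of 0.036, from Hmox1, the inducible haem oxygenase, at 0.016 ± 0.088 to Akr1b8 at 0.082 ± 0.13. Of AMPK and gluconeogenesis genes beside Zfp692, Prkab2, a subunit of AMPK, lay at 0.067 ± 0.17 and the coactivator gene Ppargc1a at 0.0037 ± 0.085. Of these 9 genes beside the members, 0 passed limma's adjusted p of 0.05, and 2, Tk2 and Aldh1a7, an unadjusted p of 0.05. Over all clones 0% passed the adjusted and 7.78% the unadjusted p, 8.98% lay below 0 in all 4 mice, and 48.7% had a mean above 0. The spot of Tk2 was flagged on 2 arrays and that of Aldh1a7 on 4, and Aldh1a7 lay at -0.43 with the mouse in Cy3 and at 0.019 with the mouse in Cy5. The unadjusted count was 0 in Cy5 alone and without mouse 4, and with plain subtraction and in the centred value table, which hold 8 of the 9. It was also 0 with flagged spots left out, which keeps 4 of the 9, and with brighter clones alone, which keeps 5. Both of the latter settings drop Tk2 and Aldh1a7, so their counts say nothing on these genes.

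The pattern of each gene over the 8 arrays was matched to the other 1386 named genes by Pearson's r, as a description. Zfp692 was most like Izumo1r (r = 0.897), Faf1 (0.889) and Mphosph9 (0.876), and Top3a like Spata1 (0.945), Marco (0.934) and Enkur (0.917). Pmp22 was most like C1s1 (0.963), Olig2 (0.940) and Rnf146 (0.913), Aldh3a1 like Lactb (0.996), Stx12 (0.976) and Htr7 (0.943), and Arhgap44 like Col7a1 (0.909), Sptbn1 (0.900) and Kcmf1 (0.885). The 8 points share 4 mice, 1 pool and 2 dye orientations, and each gene was picked as the best of many. Among the members other than Top3a, r over the 8 arrays ran from -0.324 for Pmp22 and Arhgap44 to 0.749 for Pmp22 and Aldh3a1, the pair that shares a print block.

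For the tissue label, Mybpc3, a sarcomere gene of heart muscle, was the only one of 15 cardiomyocyte markers named on the arrays, and its clone was brighter than 99.0% of clones. Of the markers of other cell types, 1 of 11 for fibroblasts, 2 of 8 for endothelium, 1 of 8 for smooth muscle, 4 of 10 for macrophages and 1 of 10 for red blood cells were measured, and 0 of 6 for adipocytes. Their log2 ratios of knockout over pool lay between -0.14 for Ddr2 and 0.18 for Lyz2, and 0 passed limma's adjusted or unadjusted p of 0.05. Their part in the values of the 5 genes was not tested. Over whole arrays, the share of spots brighter than 2 times their background ran from 8.03% to 23.8% for Cy5 and from 4.65% to 35.9% for Cy3. The number of arrays limits the precision.

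**Figure D5:**
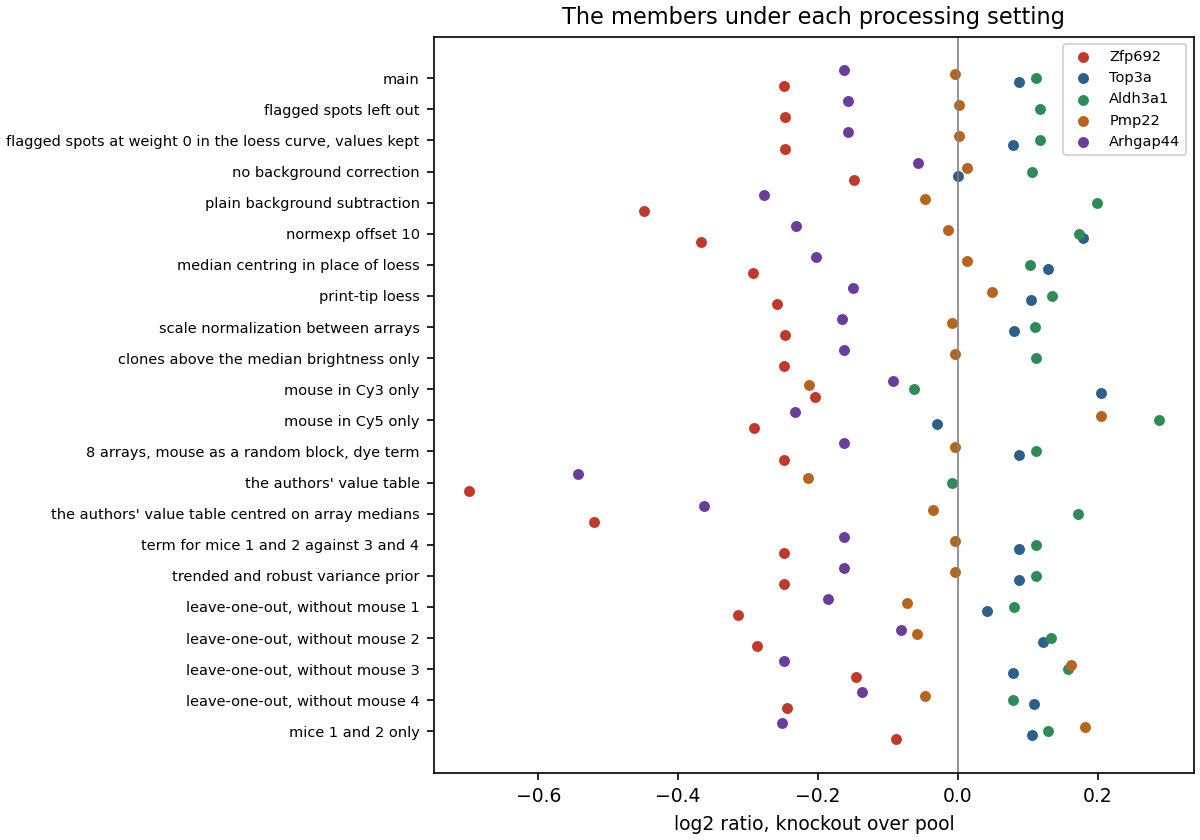
Log2 ratio of knockout over pool (x axis) for the 5 genes under the main and each alternative setting (y axis). Zfp692 stays below 0 throughout, from -0.70 to -0.089, Arhgap44 from -0.54 to -0.058, and Pmp22 falls on both sides of 0.

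The plot of the settings shows how the values changed with the background treatment. Zfp692 was -0.15 with no background correction, -0.25 with normexp and an offset of 50, -0.37 with an offset of 10 and -0.45 with plain subtraction. Arhgap44 ran in the same order, at -0.058, -0.16, -0.23 and -0.28, and Aldh3a1 at 0.11, 0.11, 0.17 and 0.20. Top3a was -0.00026, 0.088 and 0.18 under the first 3 of these and has no value with plain subtraction. Pmp22 ran from 0.013 through -0.0044 and -0.014 to -0.048. In none of the settings run did any of the 5 genes pass an adjusted p of 0.05; the lowest was 0.162, for Zfp692.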

How the data were processed

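Two-colour cDNA arrays of heart RNA from 4 knockout mice, 2 per mouse with exchanged dyes, were analysed against 1 wild-type pool. The deposited scanner files hold median pixel intensities of each spot and its local background at 635 nm (Cy5) and 532 nm (Cy3), not normalized, per the file headers, with the percent of pixels above background plus 2 SD or saturated, and a spot flag. Labelling was indirect, after reverse transcription, per the labels' protocols. The authors' deposited value table holds a score per spot of unstated scale and centring. Its rows were matched in file order: at least 99.5% of values lay within 0.01 of the background-subtracted log2 ratio of mouse over pool plus 1 constant per array (Spearman's rho at least 0.998). What sets the constant is unknown. Its column medians for mice 1 to 4 were -0.14, 0.024, -0.031 and -0.093 in Cy3 and -0.17, -0.13, -0.31 and -0.59 in Cy5, and entries beyond 20 in size were dropped.

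Background was corrected with normexp (offset 50) and each array was normalized by loess, flagged spots kept, with every ratio taken as knockout over pool by its dye labels (limma 3.58.1, R 4.3.3). Spots of 1 clone and the 2 arrays of a mouse were averaged. All 20160 clones were fitted against 0 in limma with Benjamini-Hochberg adjustment (threshold 0.05). Intervals are limma's at 95%. The script was tested on simulated scanner values. Spots were named through the RefSeq table of GRCm38.p6: 964 matched a transcript, 494 a synonym and 7 a symbol, 6312 carry no accession, and 12428 were not matched. The gene table served for names and order, and the files name no build. Promoters are RefSeq windows. Random blocks used statmod 1.5.0 and figures matplotlib 3.10.9.

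Named were the 5 members, the other neighbours, the highest and lowest gene of each list, and the 3 genes most like each member. Block 37 and Dhrs7b's array were described after the values were seen. A further list of genes is not reported here. The members and lists were chosen with earlier results of these data known. The labels do not tie mice to litters, so the sign-flip p-values measure the spread between these 4 mice. Limma's SE, intervals and p-values join that spread with the spread over mice of all clones. Top3a, with an SD over mice of 0.11, thus has an SE of 0.085, and Pmp22, with an SD of 0.33, has 0.12.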

Additional observations from a re-analysis of the deposited data

Results flagged for a closer look

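Sets of 4 mice or 8 arrays with 1 value set apart numbered 6 of the 24 examined, and about 1.2 would be expected of normally distributed values. The sets overlap, since each gene enters by array and by the mouse means of the same arrays. The 6 are therefore not separate events. Each of the 6 is given with the distance to its nearest value as a fraction of the whole range. In Pmp22, mouse 3 (-0.50) was separated from mouse 4 (0.12) by 0.888 of the range. By array, Pmp22 with mouse 3 in Cy3 (-0.87) was separated from mouse 3 in Cy5 (-0.14) by 0.590. In Dhrs7b, mouse 4 in Cy3 (2.94) was separated from mouse 1 in Cy5 (0.26) by 0.840. In H2bu2, mouse 3 in Cy3 (0.70) was separated from mouse 2 in Cy5 (0.27) by 0.540. In Akap10, mouse 1 (0.064) was separated from the other mice (-0.13 to -0.099) by 0.843. The share of spots over 2 times background in the Cy3 channel was 35.9% on the array of mouse 2 in Cy3 and at most 18.8% elsewhere, a separation of 0.549.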

How the results depend on the processing

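With 21 alternatives, 2 of them (the centred value table, and mice 1 and 2 alone) chosen after seeing the data, 0 of the 5 genes passed the threshold in any. Zfp692 and Arhgap44 stayed below 0 in all 21. Some of these settings cannot change a mean and left them at -0.25 and -0.16. They are brighter clones alone, the random mouse block, the term for mice 1 and 2 against 3 and 4, and the trended and robust variance prior. Leaving out 1 mouse gave -0.31 to -0.15 for Zfp692, -0.25 to -0.081 for Arhgap44, 0.042 to 0.12 for Top3a, 0.078 to 0.16 for Aldh3a1 and -0.074 to 0.16 for Pmp22, which turned to 0.16 without mouse 3. Pmp22 also turned to 0.0012 with flagged spots left out or kept at weight 0 in the loess curve, 0.013 with no background correction and with median centring, 0.048 with print-tip loess, 0.20 with the mouse in Cy5 alone and 0.18 in mice 1 and 2 alone. Top3a turned to -0.00026 with no background correction and -0.030 in Cy5 alone, and Aldh3a1 to -0.064 in Cy3 alone and -0.0079 in the authors' value table as deposited, where the median of all clones was -0.16. The cause of these turns was not tested; all lie within 1 SE of 0 except Pmp22 in Cy5 alone, without mouse 3 and in mice 1 and 2 alone. Over all clones 288 (1.43%) passed with the mouse in Cy5 alone, 30 higher and 258 lower, where ratios keep any dye bias. In the fit of 8 arrays with dye and a random mouse block, 55 of 20160 passed, 4 higher and 51 lower. The correlation between the 2 arrays of a mouse was -0.049 in that fit. It thus took the 8 arrays almost as independent, though they come from 4 mice. The gene lists had 1 call in Cy5 alone. The other neighbours' median moved to 0.26 in the centred value table, which held 3 of the 6. Top3a has no value with flagged spots left out, plain subtraction, brighter clones alone or the value table. No paired analysis was possible because there is 1 group, and the 2 arrays of each mouse are already joined. Signal near background limits all 5 genes.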
